A study of Mus musculus with 6 samples.

Results

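The genes described here are 33 factors of blood coagulation and fibrinolysis, taken by gene symbol from the 40803 genes of a mouse liver count table. They comprised 16 procoagulant, 9 anticoagulant and 8 fibrinolytic genes, the fibrinolytic set holding activators and inhibitors of clot dissolution alike. After knockdown of the lncRNA Hnf1aos1, 8 of the 31 tested rose and 0 fell at an adjusted p under 0.05 (edgeR). Over all genes tested 3.09% rose and 3.23% fell. With 1 library left out, the number of members that rose ran from 0 to 9. The 3 fibrinogen genes Fga, Fgb and Fgg and the protease inhibitor Serpina10 each rose about as much, by 1.04 to 1.17 on the log2 scale, and Cpb2, Serpinf2, Pros1 and F11 rose by less. The genes of the thrombin, factor X and antithrombin steps of the cascade were not called.

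Coagulation is a chain of plasma proteases that ends with thrombin cutting fibrinogen into fibrin, the mesh of a clot. Anticoagulant proteins inhibit or cut these proteases, and the fibrinolytic system, with plasmin at its centre, dissolves the mesh again. Hepatocytes make most of these proteins and secrete them into the blood, while a few of them come mainly from endothelial cells, macrophages or platelets.

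Liver RNA was sequenced from 6 male C57BL6 mice (C57BL/6J in the study's methods) fed normally, 3 in the rAAV8-Scramble group and 3 in the rAAV8-Hnf1aos1 group, with 1 library per mouse. Both groups were injected in a tail vein with 100 µL of rAAV8, a gene transfer vector built from an adeno-associated virus with a preference for hepatocytes, at about 6 weeks of age, and livers were taken 4 weeks later. The vector of the rAAV8-Hnf1aos1 group expressed a short hairpin RNA (shRNA) that targets Hnf1aos1, and that of the rAAV8-Scramble group a scrambled hairpin. The U6 promoter driving the hairpin is active in any transduced cell, the same vector carried an EGFP reporter under the CAG promoter, and no uninjected mice were among the libraries, so no comparison with untreated liver can be made here.

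The libraries held 14704746 to 16532510 counts in the rAAV8-Scramble and 18021614 to 19462398 in the rAAV8-Hnf1aos1 group, and 16327 genes passed edgeR's filter on low counts. A gene was called when edgeR's quasi-likelihood test gave an adjusted p under 0.05, and 6.32% of the genes tested were called, 3.09% as higher and 3.23% as lower in rAAV8-Hnf1aos1. Normalized counts below are counts scaled to a common library size by TMM (trimmed mean of M values), and compare a gene between libraries. Levels of different genes are compared in the deposited TPM values, which allow for transcript length. Hnf1aos1 itself stood at 512, 491 and 620.3 normalized counts in rAAV8-Scramble replicates 1 to 3 and at 278, 258 and 433 in rAAV8-Hnf1aos1 replicates 1 to 3. The groups did not overlap, but the log2 fold change of −0.74 (SE 0.195) was not called (adjusted p = 0.0625, edgeR's quasi-likelihood test). Of the 11 alternative fits other than the replicate block, 4 called Hnf1aos1 lower, DESeq2 among them (adjusted p = 0.00346). The highest adjusted p of the 11 was 0.152, by limma on unfiltered TPM. Without rAAV8-Hnf1aos1 replicate 3, the knockdown library with the most Hnf1aos1, the log2 fold change was −1.01 and called (adjusted p = 0.000261, edgeR). Over the 6 edgeR fits that leave out 1 library the adjusted p ran up to 0.218. Hepatocyte markers were abundant (7 markers with a row, 0 called by edgeR, 2 at an unadjusted p under 0.05, DESeq2 1 higher).

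In the rAAV8-Scramble livers the mean TPM of the members ran from 3598 down to 0.332. Fibrinogen led, with a mean of 3598 ± 251 TPM for Fgb, 2926 ± 194 for Fgg and 2210 ± 167 for Fga (SD, n = 3). Antithrombin (Serpinc1, 1813 ± 9.94 TPM), vitronectin (Vtn, 1484 ± 45.7), plasminogen (Plg, 1306 ± 24.6), prothrombin (F2, 973 ± 24.5), histidine-rich glycoprotein (Hrg, 951 ± 43.5) and kininogen (Kng1, 859 ± 47.8) followed. Of the 33 members, 6 exceeded 1000 TPM, 21 exceeded 100 TPM and 8 stayed below 10 TPM. The lowest were Tfpi, Thbd, Plau, F13a1, Plat, Plaur and Serpina5, at 4.23 down to 0.332 TPM, together with F8 at 9.87. In 11 of the 32 pairs of neighbours in this order, F2 and Hrg or Serpina10 and Proz among them, the ranges of the 3 libraries overlapped, so their order is not resolved. In rAAV8-Hnf1aos1 livers 14 members took another rank, and Serpina10 moved from rank 16 to rank 13. The TPM of the groups did not overlap in 13 of the 31 members that passed edgeR's filter, higher in rAAV8-Hnf1aos1 (9.1% of all genes tested), and in 4 lower, Serpinc1, Klkb1, Tfpi and Thbd (19.7% of all genes).

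**Figure D1:**
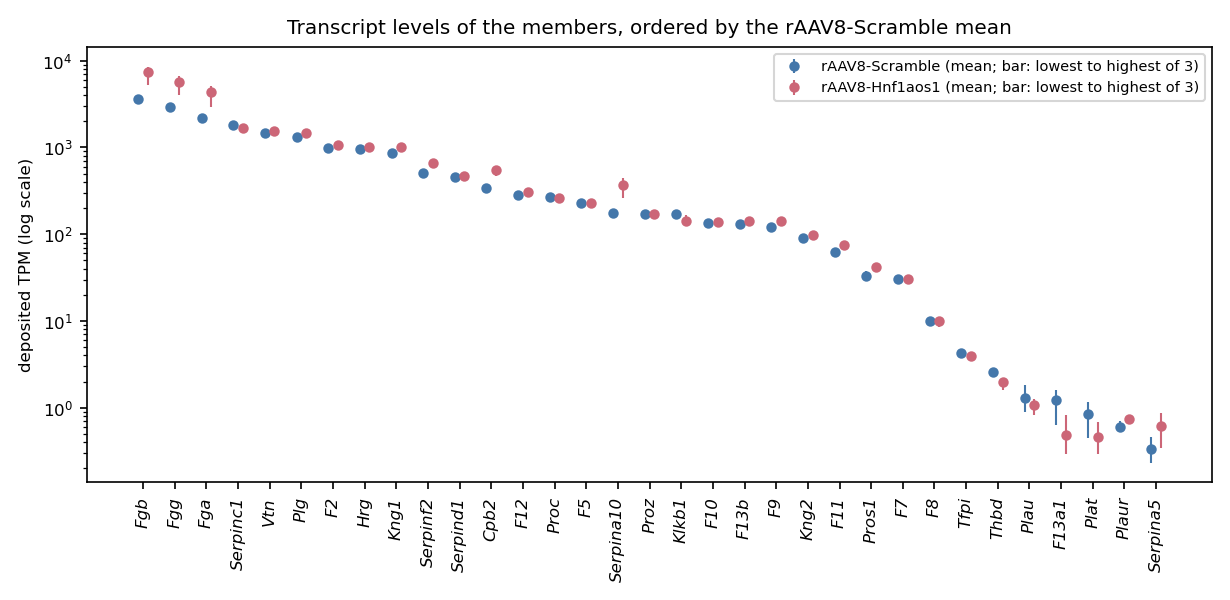
Deposited TPM of each member (y axis, log scale) in rAAV8-Scramble (blue) and rAAV8-Hnf1aos1 (red) livers, as the mean of 3 libraries with a bar from the lowest to the highest, with members ordered by the rAAV8-Scramble mean. Fgb, Fgg and Fga stand at the top in both groups, and the red bars lie wholly above the blue ones for 13 of the 31 members tested and wholly below for 4, Serpinc1, Klkb1, Tfpi and Thbd.

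Of the 33 members, 31 were tested, since Serpina5 and Plaur did not pass the filter on low counts. The 8 calls were all higher in rAAV8-Hnf1aos1, 25.8% of the members tested, and edgeR called 0 lower, with 1 at an unadjusted p under 0.05 in that direction (11.4% of all genes). DESeq2 called the same 8 higher, among 3.57% of its genes, and 0 lower, among 3.39%. The median log2 fold change of the 31 members was 0.16, against −0.00 over all genes tested, and 24 were above 0 against 49.9% of all genes. In 16 members every rAAV8-Hnf1aos1 library exceeded every rAAV8-Scramble library (15.2% of all genes tested) and in 1, Thbd, every one was lower (13.7% of all genes). By role, 4 of 16 procoagulant, 2 of 8 anticoagulant and 2 of 7 fibrinolytic members tested were called, with median log2 fold changes of 0.21, 0.06 and 0.17. In bulk liver RNA, fewer or more cells of a type and less or more RNA per cell cannot be told apart.

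**Figure D2:**
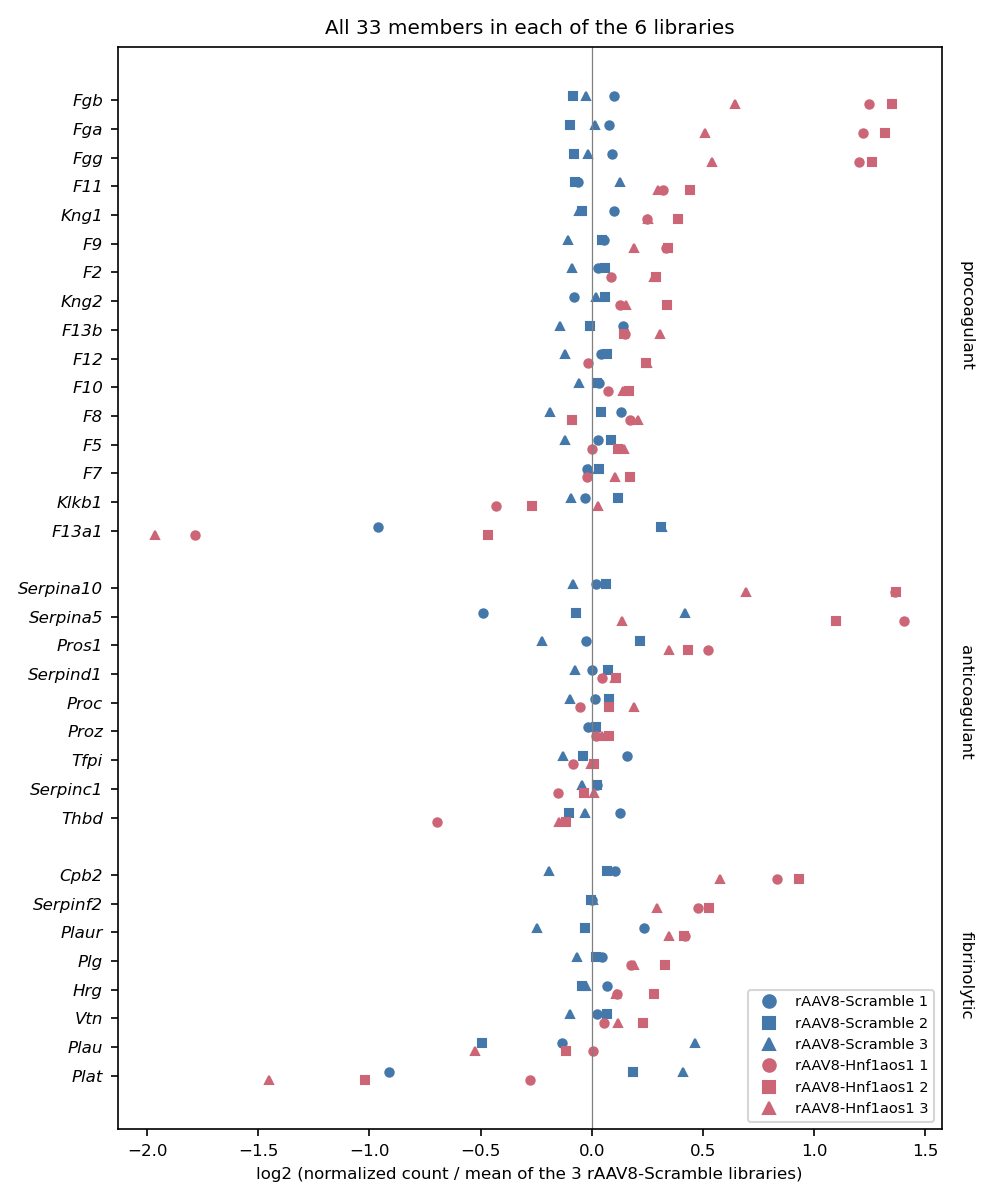
Each of the 33 members in each library, as log2 of the normalized count over the mean of the 3 rAAV8-Scramble libraries (x axis), grouped by role and ordered by the ratio of the group means. The fibrinogen genes, Serpina10 and Cpb2 lie to the right in every red library, with rAAV8-Hnf1aos1 replicate 3 (red triangles) nearest the blue points, while F13a1 and Plat scatter widely in both groups.

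The fibrinogen genes encode the alpha, beta and gamma chains of the soluble precursor of fibrin, and lie together on chromosome 3 within 42140 bases (83007724 to 83049863, RefSeq GRCm38.p6). Fgg and Fga are on the + strand and Fgb, which starts beyond them and runs towards them, on the - strand. Because the 3 chains moved together, the 250 bases before the start of each gene are printed here 5′ to 3′ on the gene's own strand, from chr3:83007474-83007723 (+, Fgg), chr3:83025903-83026152 (+, Fga) and chr3:83049864-83050113 (-, Fgb) of RefSeq GRCm38.p6. Capitals mark matches to any of 3 motifs.
Fgg: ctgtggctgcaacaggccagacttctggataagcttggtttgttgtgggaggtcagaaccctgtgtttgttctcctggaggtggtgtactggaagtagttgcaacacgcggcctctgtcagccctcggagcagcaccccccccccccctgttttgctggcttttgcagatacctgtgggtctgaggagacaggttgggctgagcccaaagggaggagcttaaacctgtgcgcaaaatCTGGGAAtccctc
Fga: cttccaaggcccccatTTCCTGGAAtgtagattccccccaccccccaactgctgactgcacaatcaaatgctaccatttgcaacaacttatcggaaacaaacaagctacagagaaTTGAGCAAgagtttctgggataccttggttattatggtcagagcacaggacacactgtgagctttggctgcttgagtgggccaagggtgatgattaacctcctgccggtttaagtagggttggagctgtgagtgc
Fgb: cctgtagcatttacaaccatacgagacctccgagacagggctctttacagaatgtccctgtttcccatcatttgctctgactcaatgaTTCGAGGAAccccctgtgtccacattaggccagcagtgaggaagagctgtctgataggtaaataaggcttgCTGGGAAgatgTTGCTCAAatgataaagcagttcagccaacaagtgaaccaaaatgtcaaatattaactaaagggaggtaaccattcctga

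The motifs were searched on both strands: a C/EBP core (TTGCNNAA), a STAT site (TTCNNNGAA) and the type II IL-6 element (CTGGGAA), whose end can overlap a STAT site. C/EBP factors are regulators of hepatocyte genes, and STAT and IL-6 elements are known from genes induced in the acute phase response. With the base before the start counted as −1, Fgb matched all 3, a C/EBP core from −80, an IL-6 element from −91 and a STAT site from −162. Fga matched a C/EBP core from −135 and a STAT site from −234, and Fgg matched the IL-6 element alone, from −13. Across the 32851 promoters of the same length in the RefSeq table, 9.56% held the C/EBP core, 7.02% the STAT site and 9.10% the IL-6 element. The 26 members with an entry have 28 promoters, of which 9, 4 and 4 held them. Of the other called members with an entry, F11 matched a C/EBP core from −17 and Pros1 a STAT site from −92, while Serpinf2 and Cpb2 matched no motif in this window. Serpina10, also called, had no entry, so its promoter was not searched. Members that were not called held matches too. F9 matched all 3 motifs, a C/EBP core from −24 and a STAT site and an IL-6 element from −82. Klkb1, Hrg and Kng2 matched the C/EBP core and Tfpi the IL-6 element, as did the untested Plaur and Serpina5 the C/EBP core. The part of these motifs in the changes was not tested.

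All 3 fibrinogen genes rose. Fga, the alpha chain, stood at 60287, 53290 and 57756 normalized counts in rAAV8-Scramble replicates 1 to 3, and at 132954, 142529 and 81347 in rAAV8-Hnf1aos1 replicates 1 to 3. Fgb, the beta chain, stood at 50485, 44448 and 46264 against 111489, 119862 and 73476. Fgg, the gamma chain, stood at 50450, 44853 and 46909 against 109115, 113557 and 68897. Every rAAV8-Hnf1aos1 library lay above every rAAV8-Scramble library for each chain, and within the knockdown group replicates 1 and 2 lay close together and replicate 3 well below them. Replicates 1 and 2 were 2.30 to 2.55 times the rAAV8-Scramble mean and replicate 3 was 1.42 to 1.56 times that mean. The log2 fold changes were 1.06 for Fga (SE 0.190, adjusted p = 0.0141), 1.11 for Fgb (SE 0.170, adjusted p = 0.00682) and 1.04 for Fgg (SE 0.175, adjusted p = 0.0106) in edgeR. They and Serpina10 were the 4 members that were called and also exceeded a log2 fold change of 1, which 0.784% of all genes did in this direction. An overlapping lncRNA, Gm30097, had a mean of 14.0 normalized counts beside Fgg.

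The ratios between the chains moved far less than the chains themselves. The TPM of Fga was 0.604 to 0.632 times that of Fgb in rAAV8-Scramble and 0.560 to 0.603 times in rAAV8-Hnf1aos1 libraries. The TPM of Fgg was 0.807 to 0.819 times that of Fgb in rAAV8-Scramble and 0.757 to 0.790 times in rAAV8-Hnf1aos1 libraries. Neither ratio overlapped between the groups. The share of fibrinogen in all TPM of a library was 0.805 to 0.920% in rAAV8-Scramble and 1.22 to 2.01% in rAAV8-Hnf1aos1. The other 30 members together took 1.05 to 1.08% and 1.12 to 1.19%, and fibrinogen made up 43.1 to 46.1% of the members' TPM in rAAV8-Scramble and 52.0 to 63.4% in rAAV8-Hnf1aos1.

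**Figure D3:**
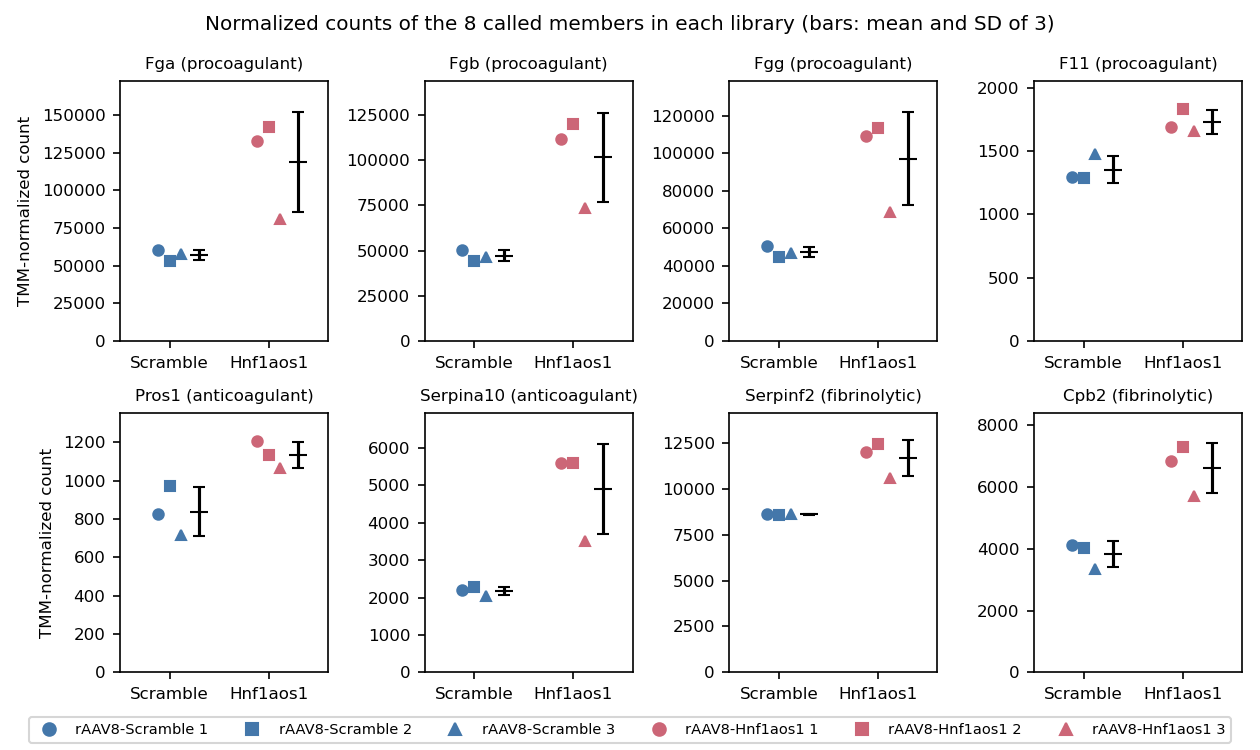
Normalized counts (y axes, from 0) of the 8 called members in rAAV8-Scramble (blue) and rAAV8-Hnf1aos1 (red) libraries, 1 symbol per replicate number, with the mean and SD of 3 libraries in black. No group overlaps the other in any panel, and rAAV8-Hnf1aos1 replicate 3 is the lowest red point in each.

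Among the other procoagulant genes F11 was called. F11 encodes factor XI, which activates factor IX, and lies on chromosome 8 (45240659 to 45262055, - strand, GRCm38.p6). Its normalized counts were 1295, 1283 and 1475 in rAAV8-Scramble and 1686, 1832 and 1660 in rAAV8-Hnf1aos1 replicates 1 to 3, without overlap. The log2 fold change was 0.35 (SE 0.0918, adjusted p = 0.0448, edgeR). The call was lost with library totals alone, on genes with a mean of at least 50 counts, with limma's voom, without robust estimation and by limma on TPM in 3 settings (adjusted p of 0.0509 to 0.238), and 4 of the 11 alternatives other than the replicate block kept it (from 0.00447). Klkb1, plasma prekallikrein, lies 4632 bases from F11 on the same strand and stood at 6764, 7499 and 6492 against 5135, 5737 and 7046 normalized counts, with overlap (log2 fold change −0.21, SE 0.124, adjusted p = 0.329, edgeR).

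The remaining members of the contact system, which starts clotting on charged surfaces, were not called. F12, factor XII, had a log2 fold change of 0.16, Kng1 one of 0.30 (adjusted p = 0.108, edgeR) and Kng2 one of 0.21. Both kininogen genes stood higher in every rAAV8-Hnf1aos1 library than in every rAAV8-Scramble library. Kng1 and Kng2 are near-identical copies 29118 bases apart on chromosome 16, so reads may have been split or lost between these copies and neither value is certain on its own.

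The protease steps from factor VII to thrombin held no call. F9, factor IX, stood at 2779, 2755 and 2483 normalized counts in rAAV8-Scramble and at 3366, 3393 and 3046 in rAAV8-Hnf1aos1 replicates 1 to 3. These groups did not overlap, yet F9 was not called (log2 fold change 0.29, SE 0.0923, adjusted p = 0.0852, edgeR), and without rAAV8-Hnf1aos1 replicate 3 it was (adjusted p = 0.0483, and 0.0483 to 0.313 over the 6 fits). F2, prothrombin, and F10, factor X, also stood higher without overlap at log2 fold changes of 0.22 and 0.13, with adjusted p of 0.234 and 0.401 (edgeR). F7, the factor VII that tissue factor activates, had the smallest change of the procoagulant genes at 0.09, with 635, 657 and 639 normalized counts against 634, 725 and 692. The cofactors F5 and F8 had 0.09 and 0.10, with overlapping groups. F7, F10 and Proz lie within 50521 bases of chromosome 8 (13025506 to 13076026), with 1498 and 3907 bases between neighbours, and none of these 3 was called (0 at an unadjusted p under 0.05 by edgeR and 0 called by DESeq2). Their log2 fold changes were 0.05 to 0.13.

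Factor XIII, which crosslinks fibrin, has subunits from different cells. F13b, the hepatocyte-made carrier subunit, had a log2 fold change of 0.20 (adjusted p = 0.249, edgeR) without overlap. F13a1, the catalytic subunit known from macrophages and platelets, had the lowest log2 fold change of all members, −1.23 (SE 0.461, adjusted p = 0.142, edgeR). It rested on few counts, 23.6, 57.1 and 57.2 normalized counts in rAAV8-Scramble and 13.4, 33.3 and 11.8 in rAAV8-Hnf1aos1 replicates 1 to 3, and the groups overlapped. Of the alternatives, only the fit on unfiltered genes called it lower, at an adjusted p of 0.0171 (3.75% of all genes in that fit), and the alternatives ran from 0.0171 to 0.330.

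Of the 7 vitamin K-dependent proteins, F2, F7, F9, F10, Proc, Pros1 and Proz, only Pros1 was called (14.3%, against 3.09% of all genes called higher). All 7 log2 fold changes were above 0 (49.9% of all genes), with a median of 0.13. Higher without overlap were 4 of the 7 (15.2% of all genes tested). The enzymes that carboxylate these proteins and recycle vitamin K were not called by edgeR either. Ggcx and Vkorc1 had log2 fold changes of −0.08 and −0.14 (adjusted p of 0.602 and 0.493), which turned to 0.12 and 0.06 with library sizes from the ERCC spike-ins. Vkorc1l1, a paralog of Vkorc1, had 0.41 without overlap (adjusted p = 0.0913, and 0.0114 with spike-in sizes, edgeR).

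Among the anticoagulant genes Serpina10 and Pros1 rose. Serpina10 encodes the protein Z-dependent protease inhibitor, which inactivates factor Xa and factor XIa, and lies on chromosome 12 (103616675 to 103631490). It stood at 2194, 2268 and 2045 normalized counts in rAAV8-Scramble and at 5579, 5597 and 3511 in rAAV8-Hnf1aos1 replicates 1 to 3. The groups did not overlap, and replicate 3 again lay below the other knockdown libraries. Its log2 fold change of 1.17 (SE 0.168, adjusted p = 0.0079, edgeR) was the highest of all 31 members tested. Its cofactor protein Z, encoded by Proz, stood at 5353, 5487 and 5429 against 5485, 5729 and 5596, with overlap and a log2 fold change of 0.05 (adjusted p = 0.789, edgeR). The TPM of the inhibitor was thus 0.948 to 1.04 times that of its cofactor in rAAV8-Scramble and 1.58 to 2.56 times in rAAV8-Hnf1aos1 libraries.

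Pros1 encodes protein S, the cofactor of activated protein C, and lies on chromosome 16 (62854307 to 62929346, + strand). It stood at 824, 974 and 717 normalized counts in rAAV8-Scramble and at 1205, 1132 and 1066 in rAAV8-Hnf1aos1 replicates 1 to 3, without overlap. The log2 fold change was 0.44 (SE 0.114, adjusted p = 0.045, edgeR). The call was lost with library totals alone, on genes with a mean of at least 50 counts, with limma's voom, without robust estimation and by limma on TPM in 3 settings (adjusted p of 0.0556 to 0.221), and 4 of the 11 alternatives other than the replicate block kept it (from 0.00248). Proc, protein C itself, was not called (log2 fold change 0.07, and −0.00 from TPM), nor was thrombomodulin (Thbd), the endothelial cofactor of its activation, with 81.1, 69.2 and 72.6 against 45.8, 68.4 and 67.0 normalized counts and no overlap (−0.30, SE 0.212, adjusted p = 0.428, edgeR).

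The direct inhibitors of thrombin and of the tissue factor complex showed no call. Serpinc1, antithrombin and the most abundant anticoagulant transcript, had 29501, 29508 and 28172 normalized counts against 26161, 28338 and 29291 (log2 fold change −0.06, SE 0.101, adjusted p = 0.781, edgeR). Its TPM was lower without overlap, at 1802 to 1821 against 1609 to 1707 (−0.14 on log2(TPM + 0.1), adjusted p = 0.302, limma). Serpind1, heparin cofactor II, had 0.09, and Tfpi, which inhibits the factor VIIa complex, −0.03. The directions of Serpinc1 and Tfpi turned to 0.14 and 0.18 with library sizes from the ERCC spike-ins, a scaling that moved the median of all genes to 0.20. Serpina5, the protein C inhibitor, was below the filter, with 4, 5 and 7 raw counts in rAAV8-Scramble and 16, 13 and 7 in rAAV8-Hnf1aos1 replicates 1 to 3.

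Both called genes of the fibrinolytic set encode proteins that slow clot dissolution. Cpb2 encodes the thrombin-activatable fibrinolysis inhibitor, a carboxypeptidase that trims the lysines to which plasminogen binds on fibrin, and lies on chromosome 14 (75242287 to 75283555, + strand). It stood at 4119, 4016 and 3350 normalized counts in rAAV8-Scramble and at 6823, 7298 and 5715 in rAAV8-Hnf1aos1 replicates 1 to 3. No library of one group reached into the other, and the log2 fold change was 0.79 (SE 0.120, adjusted p = 0.00592, edgeR), the smallest adjusted p of all members. Gm35679, a lncRNA overlapping Cpb2, had a mean of 132 normalized counts, and the strand setting of the counting is not given in the sources used here.

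Serpinf2 encodes antiplasmin, the main plasma inhibitor of plasmin, and lies on chromosome 11 (75431736 to 75439501, - strand). Its counts were 8608, 8581 and 8649 in rAAV8-Scramble, within a narrow range, and 12003, 12416 and 10568 in rAAV8-Hnf1aos1 replicates 1 to 3, without overlap. The log2 fold change was 0.44 (SE 0.0995, adjusted p = 0.0296, edgeR). Plg, which encodes the plasmin precursor plasminogen, stood at 28505, 27997 and 26347 against 31229, 34724 and 31536, without overlap but without a call (log2 fold change 0.23, SE 0.103, adjusted p = 0.196, edgeR). Hrg, which binds plasminogen and heparin, and Vtn, an adhesive plasma glycoprotein, had 0.17 and 0.14 and were not called. The plasminogen activators were at low counts: Plat, the tissue type, stood at 9.23, 19.8 and 23.1 against 14.3, 8.55 and 6.34 normalized counts (log2 fold change −0.82, SE 0.456, adjusted p = 0.303, edgeR). Plau, the urokinase type, had −0.20 and its receptor Plaur, below the filter, had 6 to 9 raw counts in rAAV8-Scramble and 11 in each rAAV8-Hnf1aos1 library. Plat and Plau were not called, and Plaur, like Serpina5, was not tested.

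**Figure D4:**
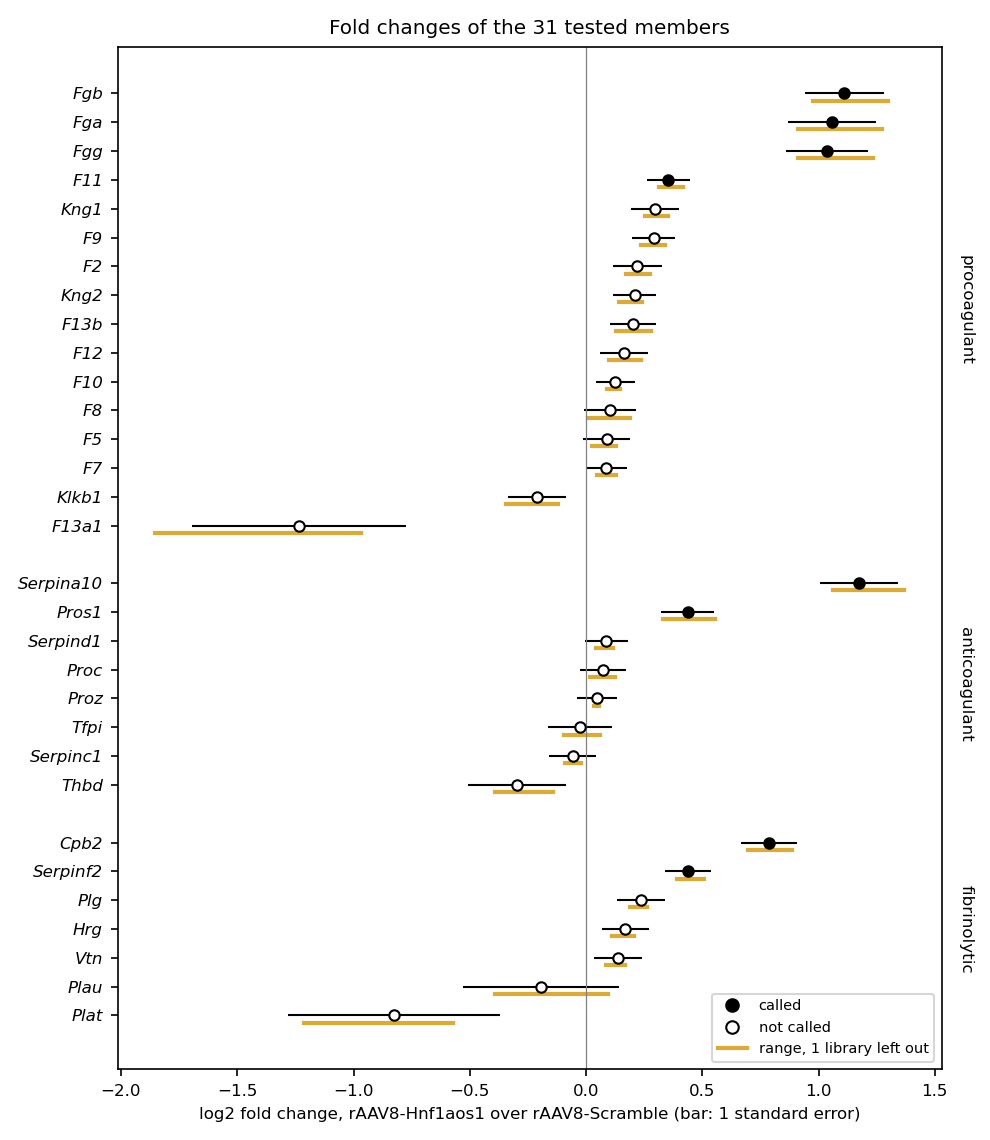
Log2 fold change of each of the 31 members tested, rAAV8-Hnf1aos1 over rAAV8-Scramble (x axis, with 1 standard error), filled where called, with the range over the 6 fits that leave out 1 library below it. All 8 filled points lie above 0 over their whole range, and Tfpi and Plau are the members whose range crosses 0.

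The number of calls rested on single libraries. It was 5 without rAAV8-Scramble replicate 1 (1.59% of all genes called higher), 4 without rAAV8-Scramble replicate 2 (1.01%) and 0 without rAAV8-Scramble replicate 3 (10 higher at an unadjusted p under 0.05, edgeR, with 0.228% of all genes called higher there). It was 4 without rAAV8-Hnf1aos1 replicate 1 (1.75%), 5 without replicate 2 (0.836%) and 9, with F9 added to the 8, without replicate 3 (6.06%). Fgb, Serpina10 and Cpb2 were called in 5 of these 6 fits, Fgg in 4, Fga in 3, Pros1 in 2 and F11 and Serpinf2 in 1. The log2 fold changes of the 8 kept their sign in all 6 fits, at 0.91 to 1.30 for the fibrinogen genes, 1.06 to 1.37 for Serpina10 and 0.69 to 0.89 for Cpb2. With library sizes from the spike-ins 17 members were called higher, where 18.6% of all genes were, and limma on log2(TPM + 0.1) called 0 members, with 10 higher at an unadjusted p under 0.05 and 0.244% of all genes called higher. It also called 0 with 1 added (0.396% of all genes) and without a filter (0.0873%), again with 10 higher at an unadjusted p under 0.05 in each.

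Knockdown replicate 3, which held the most Hnf1aos1 of its group, was the rAAV8-Hnf1aos1 library nearest the rAAV8-Scramble mean in 8 of the 8 called members. The same share was not counted over all called genes, so the 8 of 8 is not known to be particular to the members. Without replicate 3 edgeR called 1881 genes in all, against 630 without rAAV8-Hnf1aos1 replicate 1 and 323 without replicate 2. The link of a library's fibrinogen to its Hnf1aos1 level was not tested.

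Among 31 other genes of the pathway, 29 were tested, 3 rose and 2 fell (3.09% and 3.23% of all genes tested by edgeR). DESeq2 called 5 of this list higher and 1 lower (3.57% and 3.39% of its genes), with Fgl1 and Serping1 added and F2rl1 lost. The thrombin receptor F2r stood at 529, 637 and 522 normalized counts in rAAV8-Scramble and at 1161, 831 and 774 in rAAV8-Hnf1aos1 replicates 1 to 3 (log2 fold change 0.71, SE 0.155, adjusted p = 0.0308, edgeR). Its relatives F2rl2 and F2rl1 fell, F2rl2 from 76.9, 116 and 73.7 to 29.6, 36.1 and 36.2 (−1.38, SE 0.241, adjusted p = 0.0105, edgeR) and F2rl1 from 15.4, 27.4 and 30.8 to 4.77, 11.4 and 7.25 (−1.63, SE 0.427, adjusted p = 0.0453, edgeR). The call of F2rl1 was lost by DESeq2, voom, without robust estimation and from TPM (adjusted p of 0.0505 to 0.168). A further relative, F2rl3, had 0 to 2 raw counts in each library and was not tested. Pzp, a broad plasma protease inhibitor, rose by 0.45, and C4bp, a complement inhibitor that binds protein S in plasma, by 0.48 (adjusted p of 0.042 and 0.0379, edgeR). Fgl1, a fibrinogen-like protein of hepatocytes, had the largest log2 fold change of the list at 1.68, without overlap, and was not called by edgeR (adjusted p = 0.103, against 0.00478 by DESeq2 and 0.0291 by voom). Serping1, the inhibitor of C1 and of contact-system proteases, had 0.34 without overlap (adjusted p = 0.0637 by edgeR and 0.0172 by DESeq2). Tissue factor F3 (log2 fold change 0.28) and the platelet adhesion protein Vwf (−0.17) were not called. F2rl2 was called in 6 of the 6 fits that leave out 1 library, F2r and Pzp in 2, and C4bp and F2rl1 in 1 each.

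Lists of other plasma proteins are given beside the members. Over all genes edgeR called 3.09% higher and 3.23% lower, and DESeq2 3.57% and 3.39%. Of 18 positive acute phase genes 2 were called higher (16 at an unadjusted p under 0.05 and 14 called by DESeq2), with a median log2 fold change of 1.20, and of 18 complement genes 10 were called higher (15 at an unadjusted p under 0.05 and 10 called by DESeq2), with a median of 0.48. Of 15 other hepatocyte plasma proteins 1 was called higher (7 at an unadjusted p under 0.05, with 3 called higher and 2 lower by DESeq2), with a median of 0.12. Among 13 regulators of such genes edgeR called 0, with 8 at an unadjusted p under 0.05, and DESeq2 called 5 higher and 1 lower. Hnf4a, a central transcription factor of hepatocytes, had a log2 fold change of −0.08 (0.12 with spike-in library sizes), with overlapping groups. Stat3, the transcription factor activated by IL-6, stood at 1858, 1791 and 1894 against 3558, 4293 and 2203 normalized counts (0.86, SE 0.224, adjusted p = 0.0723, edgeR), and was called without rAAV8-Hnf1aos1 replicate 3 (adjusted p = 2.6e-05, up to 0.235 over the 6 fits, edgeR). Stat3 was also called by DESeq2 (adjusted p = 0.000102), with spike-in sizes, by voom and without robust estimation (0.0121 to 0.0473), and in the other 7 of the 11 alternatives it was not (up to 0.237). Cebpb had 0.80 (adjusted p = 0.150 by edgeR and 0.00572 by DESeq2). The part of these genes in the members' values was not tested.

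Marker genes of other liver cells were read beside the members that come mainly from such cells (F8, F13a1, Tfpi, Thbd, Plat, Plau and Plaur). Of these members 0 of 6 tested were called by edgeR, with 1 at an unadjusted p under 0.05 and 0 by DESeq2, and their median log2 fold change was −0.25. Of 8 macrophage markers 2 were called higher by edgeR, Adgre1 and Clec4f (3.09% of all genes), and 3 by DESeq2 (3.57%). Higher without overlap were 7 of the 8 (15.2% of all genes tested). The summed normalized counts of the macrophage markers were 2913 to 3532 in rAAV8-Scramble and 3714 to 4776 in rAAV8-Hnf1aos1 libraries. Summed endothelial markers were 5308 to 5972 and 5059 to 5807, and 0 of 8 were called (0 at an unadjusted p under 0.05, and 0 by DESeq2). Of 8 neutrophil markers 1 passed the filter, Ly6g and Mpo were at 0 counts in every library, and the sums were 46.1 to 69.3 against 75.2 to 106. Platelet markers summed to 184 to 240 against 190 to 223 with Treml1 at 0 counts, and lymphocyte markers to 102 to 147 against 137 to 154. Stellate cell markers summed to 5716 to 7513 against 5196 to 6867. Of these 8, edgeR and DESeq2 called 0 (1 at an unadjusted p under 0.05 by edgeR), and 7 were below 0, with a median log2 fold change of −0.17. Red blood cell markers summed to 2796 to 3262 against 2632 to 3404, and 0 of 5 tested were called by edgeR (0 at an unadjusted p under 0.05, and 0 by DESeq2). The part of these cells in the members' values was not tested.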

How the data were processed

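RNA from 6 mouse livers was sequenced in pairs of reads. Per the methods, the authors used Trimmomatic for trimming, STAR for alignment to GRCm38 and featureCounts for uniquely mapped exonic reads, and deposited raw counts of 40895 features without normalization. The authors also deposited TPM, whose computation is not given in the sources used here. A normalized table and the authors' comparison (log2 fold changes and p-values from DESeq2) were not used. The sources disagree on the build (GRCm38 in the methods, GRCm39 in the submitters' processing notes) and on the kit (poly(A) selection, or depletion of ribosomal RNA per the labels). Coordinates and promoters were therefore taken from RefSeq GRCm38.p6 by symbol (91.9% of genes and 33 members matched). Uniquely mapped reads understate near-identical copies.

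The 92 ERCC spike-in rows (1.38 to 1.52% of counts in rAAV8-Scramble and 1.18 to 1.24% in rAAV8-Hnf1aos1) were left out. In R 4.3.3, edgeR 4.0.16 (TMM, filterByExpr with default settings, robust glmQLFit, glmQLFTest, Benjamini-Hochberg over 16327 genes) compared the groups with the group as the only term. A log2 fold change limit of 1 follows the study. Alternatives were DESeq2 1.42.0, its size factors, library totals, spike-in sizes, no filter, a mean of at least 50 counts, a replicate block, voom in limma 3.58.1, no robust estimation, limma on log2(TPM + 0.1) and log2(TPM + 1) for genes of at least 0.5 TPM in 3 libraries or unfiltered, and each library left out. Gene totals of 14704746 to 19462398 leave mainly the spread between mice (biological coefficient of variation 13.9%). Chi-square values per gene between libraries of a group were 7.73 to 31.9, so none was a repeat. On simulated data with 200 of 16327 genes changed by 2 (log2), edgeR called 91.7% of them, and 8.94% of its calls were unchanged genes. Unchanged genes made up 11.8% of the calls of DESeq2 and 6.93% of those of voom. The log2 fold changes of the members tested were smaller, −1.23 to 1.17, so the 91.7% does not hold for changes of their size. Exact permutation p-values of 3 against 3 cannot go below 0.1 and are not printed.

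Named genes were all members, Hnf1aos1, the called genes of a list of the pathway's other genes with F3, Vwf, Ggcx and Vkorc1, and the regulators Hnf4a, Stat3 and Cebpb. Other genes of this rule are not reported here. Fgl1, Serping1, Vkorc1l1, F2rl3, Adgre1, Clec4f and overlapping or 0-count genes were named after their values were seen. The members and lists were chosen with earlier results of these data known. Figures were drawn with matplotlib 3.10.9.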

Additional observations from a re-analysis of the deposited data

How the results depend on the processing

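Over the alternatives for single members, 315 values kept direction and side of the threshold, 34 lost a call, 10 gained one and 10 changed sign, and with 1 library left out these numbers were 161, 22, 1 and 2. The number of members called higher was 8, but 17 with spike-in library sizes and 0 to 9 with 1 library left out, while 1 member, F13a1, was called lower without a filter on low counts. Procoagulant calls went from 4 to 11 with spike-in sizes and ran from 0 to 5 with 1 library left out. Anticoagulant calls went from 2 to 1 with library totals, a mean of at least 50 counts, voom and no robust estimation, and ran from 0 to 2 with 1 library left out. Fibrinolytic calls went from 2 to 4 with spike-in sizes and ran from 0 to 2. Calls among the pathway's other genes went from 5 to 11 with spike-in sizes and ran from 1 to 7. For these counts the TPM settings were chosen after seeing the data. With 0.1 added, with 1 added, and with 0.1 added and no filter, 0 members of any role were called, calls among the pathway's other genes were 1, 1 and 0, and calls over all genes were 115, 217 and 68. Calls over all genes went from 1032 to 3394 with spike-in sizes, where the median of all genes was 0.20 and that of the members 0.36, and to 1902 without a filter, and ran from 103 without rAAV8-Scramble replicate 3 to 1881 without rAAV8-Hnf1aos1 replicate 3. Of all calls, 505 were higher and 527 lower in the main test, 3030 and 364 with spike-in sizes, and 319 and 729 with library totals. The log2 fold change of Hnf1aos1 became a call at −0.74 by DESeq2, without a filter and without robust estimation, and at −0.77 by voom and with the replicate block, and ran from −1.01 to −0.60 with 1 library left out. Signs changed for Proc from TPM (−0.00409 with 0.1 added, with and without a filter, −0.00407 with 1 added), Proz (−0.0246 with library totals, −0.0294 and −0.0293 in the same TPM settings), Serpinc1 (0.14), Tfpi (0.18) and Plau (0.00795) with spike-in sizes, and with 1 library left out Tfpi (−0.0941 to 0.0618, above 0 without rAAV8-Scramble replicate 1) and Plau (−0.39 to 0.0956, above 0 without rAAV8-Scramble replicate 3). The cause was not tested. Samples of the same replicate number did not deviate together over all genes (correlations of −0.0226, 0.0231 and 0.00321), so no pairing by number was seen. A pairing that touches few genes would not show in these correlations. With the replicate block 6 members were called higher, F11 and Serpinf2 losing their calls, fibrinolytic calls went from 2 to 1, and 878 genes were called in all. F13a1, Plat, Plau, Plaur and Serpina5 rest on few counts.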
